A study of Mus musculus with 6 samples.

Results

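Expression of 10 immune checkpoint and costimulatory genes was examined in the mouse transcriptome of livers that carried human hepatocellular carcinoma (HCC) cells. The genes were fixed by name and found by Ensembl identifier in the mouse count table, where they were 10 of 56884 genes. All of them were present, and 9 passed the minimum of 10 counts over all libraries, as did 18018 mouse genes in all. The set held the ligands Cd274 (PD-L1), Pdcd1lg2 (PD-L2), Cd80 and Cd86, the receptors Havcr2 (TIM-3) and Lag3, the receptor and ligand Vsir (VISTA), the galectin gene Lgals9 (galectin-9), and the phagocytosis checkpoint of Cd47 and Sirpa.

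The mice were male athymic BALB/c animals (nu/nu), aged 6 weeks by the labels, which lack a thymus and mature T cells but keep myeloid, natural killer and B cells. Every mouse received human HCC cells in the liver and, 1 week later, AAV8 through the tail vein, and was followed for another 3 weeks. The 3 siControl libraries (genotype WT, control AAV) and the 3 siAATF libraries (genotype KD, siAATF AAV) therefore shared the tumor cells, the vector type and the TBG promoter, which is active in hepatocytes, so the knockdown was not aimed at immune cells. No group without tumor cells or without AAV was part of the comparison, and whether each library came from 1 mouse was not given in the sources used here. The p-values thus measure the spread between libraries, which may be technical.

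Checkpoint ligands dampen or tune the activity of immune cells that carry the matching receptor. PD-L1 and PD-L2 engage PD-1 on T cells, CD80 and CD86 drive T cells through CD28 or restrain them through CTLA-4, and TIM-3, VISTA and LAG-3 are further inhibitory receptors. CD47 on a target cell binds SIRPα on macrophages and neutrophils and blocks phagocytosis, which makes this axis a myeloid checkpoint that operates without T cells. In the liver these genes are known from Kupffer cells, recruited monocytes, dendritic cells, sinusoidal endothelium and, for some ligands, hepatocytes.

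The origin of the counts differed sharply between the groups and touches every level given here. Whether tumor and surrounding liver were sampled alike in the 2 groups was not given in the sources used here, so the piece of tissue taken and the vector cannot be told apart. Mouse counts were 213022 to 913584 per library in siControl against 11835898 to 42563694 in siAATF, and human counts made up 98.1 to 99.2% of gene counts in siControl but 0.972 to 2.14% in siAATF. With 0 counts, a level of up to 3 counts is allowed, equal to 3.28 to 14.1 CPM (read counts scaled to a library of 1000000 mouse counts) in siControl but 0.0705 to 0.253 CPM in siAATF, for counting error only. These floors are given before normalization and differ from the normalized levels below. In siAATF replicate 2, for example, the 3 counts of Cd86 were 0.605 CPM after normalization, against 0.253 before. The siRNA target Aatf had 12, 1 and 23 counts in siControl replicates 1 to 3 against 384, 109 and 340 in siAATF, which was 8.29 ± 5.33 against 18.0 ± 4.43 CPM (SD, n = 3) after trimmed mean of M values (TMM) normalization. After TMM the target was thus not lower in the libraries labelled siAATF, with a log2 fold change of 0.93 and an adjusted p of 0.152 by edgeR's quasi-likelihood test. Its direction turned with mouse library size scaling (-0.92, adjusted p = 0.174) and on thinning to the smallest mouse total (-0.38, adjusted p = 0.829), and it was higher with scaling by all gene counts (5.04). A knockdown of Aatf is therefore not shown by these counts, and every direction below is one between libraries labelled in this way.

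Markers of the cells that usually carry checkpoint genes also differed. Of all genes tested by edgeR after TMM, 14.4% were called lower and 17.6% higher in siAATF. Summed pan-myeloid markers (12 genes, among them Cd68, Csf1r and Adgre1) lay at 2186 to 3758 TMM CPM in siControl against 47.8 to 266 in siAATF, and 11 of 12 were lower in siAATF by that test. Pan-leukocyte markers lay at 942 to 954 against 27.6 to 78.1 TMM CPM, with 5 of 5 lower, whereas Kupffer cell markers lay at 16.9 to 112 against 78.7 to 134 with 0 of 6 called by edgeR in either direction (at an unadjusted p under 0.05, 1 was lower and 2 were higher, DESeq2 called 0 and limma-voom 1 each way). Hepatocyte markers lay at 2925 to 7245 against 33245 to 104802 TMM CPM, with 8 of 8 higher, and fibroblast markers at 8020 to 12045 against 325 to 472, with 5 of 6 lower. Scaled to the human plus mouse total (as CPM), none of the 12 summed lists was lower in siAATF without overlap. On that scale 6 lists overlapped (pan-myeloid at 33.1 to 128 against 19.6 to 136, pan-leukocyte, neutrophil, T cell, natural killer cell and fibroblast). The other 6 lay higher in siAATF without overlap, namely Kupffer cell (0.256 to 3.81 against 32.2 to 90.1), dendritic cell, plasmacytoid dendritic cell, B cell, endothelial cell and hepatocyte (44.2 to 247 against 13628 to 55354) markers. With this scaling in the fit, 15711 of all 18018 mouse genes were called higher and 119 lower. In bulk RNA, fewer cells of a type and less RNA of a gene per cell cannot be told apart, and the part of these marker differences in the checkpoint values was not tested.

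**Figure D1:**
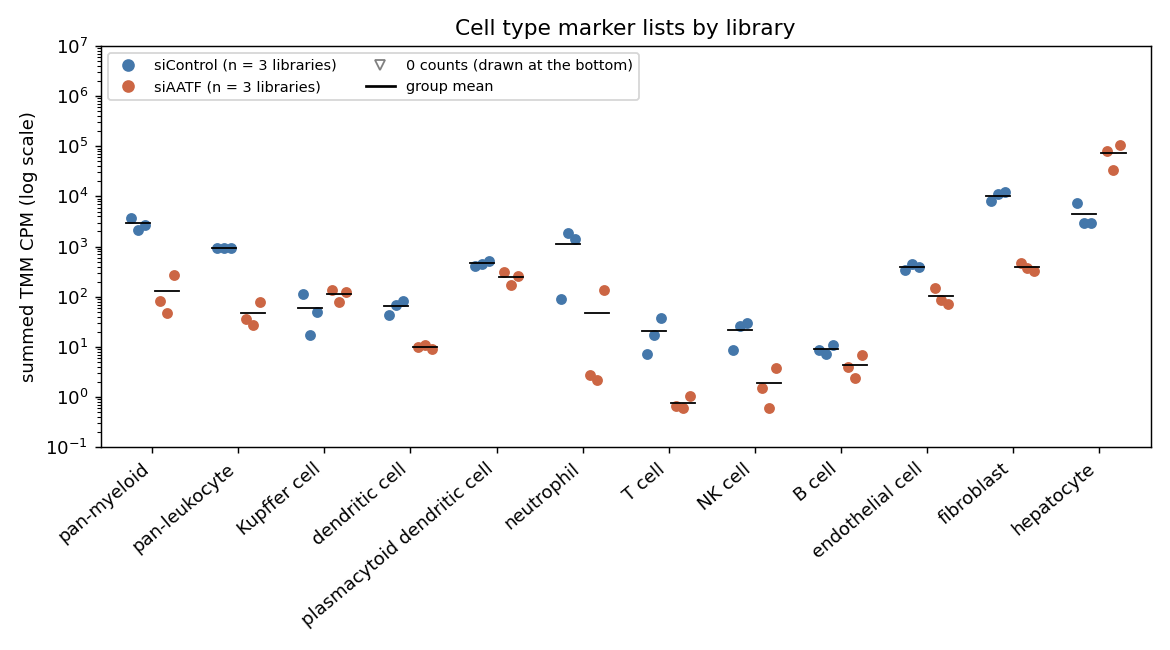
Summed TMM CPM of 12 cell type marker lists (log axis) in each of the 3 siControl and 3 siAATF libraries, with black lines for group means. Pan-myeloid markers reach 2186 to 3758 in siControl against 47.8 to 266 in siAATF, and hepatocyte markers go the other way.

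Relative to the other mouse genes, 5 of the 9 tested members were lower in siAATF and 1 was higher. Cd274, Cd86, Vsir, Havcr2 and Sirpa were lower, Lgals9 was higher, and Cd47, Cd80 and Lag3 did not pass the test. The 5 lower calls stood against a background of 14.4% of all 18018 genes called lower, and the single higher call against 17.6% called higher (edgeR's quasi-likelihood test, adjusted p under 0.05). The libraries of the groups did not overlap in the lower direction for 5 members, where 18.1% of all genes showed this, and in the higher direction for 1 member, where 34.5% did. The median log2 fold change over the 9 tested members was -2.42, and over all genes tested it was 0.50. By the rule of an unadjusted p under 0.05 and an absolute log2 fold change of at least 2, 6 members were lower against 13.1% of all genes, the added member being Cd80, and 0 were higher against 13.6%, since Lgals9, the 1 member higher at an unadjusted p under 0.05, did not reach the fold change, by edgeR.

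**Figure D2:**
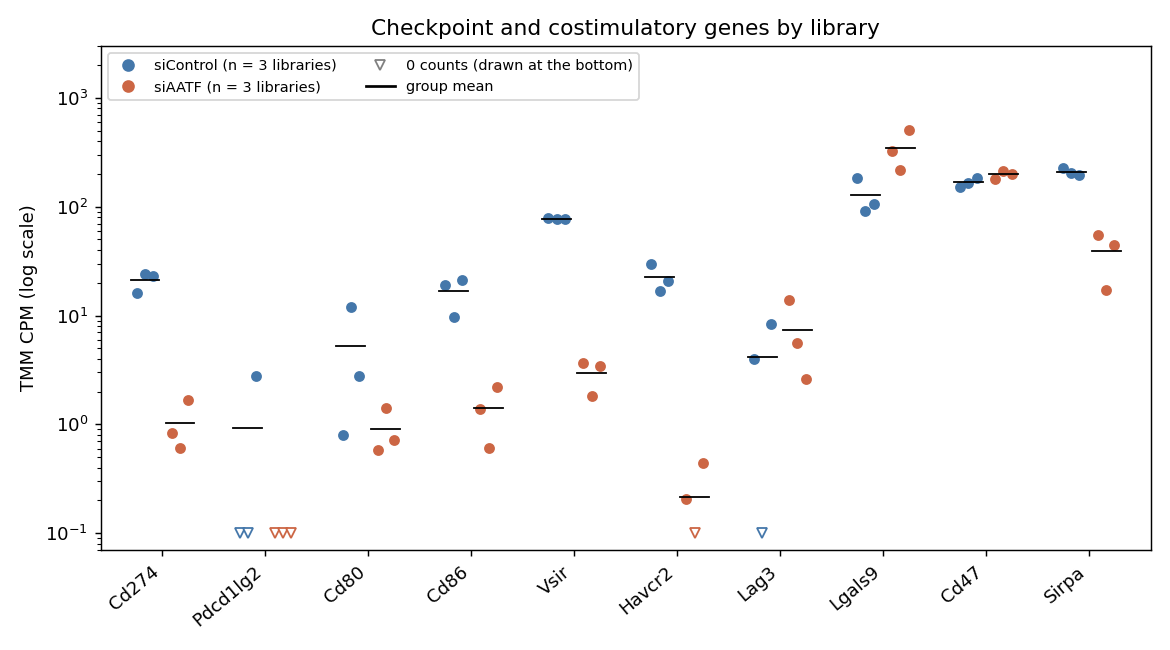
TMM CPM of the 10 checkpoint and costimulatory genes (log axis) by library, 3 per group, with black lines for group means and open triangles for libraries at 0 counts. Cd274, Cd86, Vsir, Havcr2 and Sirpa separate downward, from 77.5 to 2.98 for the means of Vsir, while the means of Cd47 are 167 and 198.

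Among the B7 ligands, Cd274 and Cd86 fell. Cd274 (ENSMUSG00000016496, chr19:29344855-29365495 of GRCm39, plus strand) encodes PD-L1, which restrains T cells through PD-1 and is induced by interferon gamma. It had 20, 10 and 41 counts in siControl replicates 1 to 3 against 24, 3 and 30 in siAATF, or 16.1, 24.2 and 22.9 against 0.828, 0.605 and 1.66 TMM CPM. Every siAATF library thus lay below every siControl library on this scale although the raw counts were alike, since the siAATF libraries held many more mouse counts. The means were 21.0 ± 4.35 and 1.03 ± 0.558 TMM CPM (SD, n = 3), with a log2 fold change of -4.24 (SE 0.52, adjusted p = 0.000102 by edgeR). The exons of Cd274 share 396 bases with the lncRNA Gm36043 on the opposite strand, which had at most 2 counts in a library.

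Cd86 (ENSMUSG00000022901, chr16:36424231-36486439, minus strand) encodes a ligand of CD28 and CTLA-4 on dendritic cells, macrophages and B cells. It had 24, 4 and 38 counts in siControl against 40, 3 and 40 in siAATF, or 19.3, 9.66 and 21.2 against 1.38, 0.605 and 2.22 TMM CPM. The groups did not overlap, and Cd86 was 11.7-fold lower in siAATF (log2 fold change -3.55, SE 0.55, adjusted p = 0.000425 by edgeR). Dendritic cell markers (8 genes) summed to 43.4 to 83.7 against 8.99 to 10.9 TMM CPM, with 2 of 8 lower, against 14.4% of all genes. B cell markers summed to 7.25 to 11.2 against 2.42 to 6.82 TMM CPM. As CPM of the human plus mouse total both lay higher in siAATF, dendritic cell markers at 1.02 to 2.78 against 4.46 to 6.79 and B cell markers at 0.110 to 0.370 against 0.992 to 3.48.

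Cd80 (ENSMUSG00000075122, chr16:38275923-38316697, plus strand), the other ligand of CD28 and CTLA-4, was near the limit of detection. Its counts were 1, 5 and 5 in siControl against 17, 7 and 13 in siAATF, or 0.803, 12.1 and 2.79 against 0.587, 1.41 and 0.721 TMM CPM, and the groups overlapped. Its log2 fold change was -2.28 with an SE of 1.02, an unadjusted p of 0.0445 and an adjusted p of 0.109 by edgeR. DESeq2 gave -2.44 with an adjusted p of 0.0340, so the call for Cd80 depended on the program. Without siControl replicate 2 the log2 fold change was -1.11 (adjusted p = 0.434 by edgeR). Pdcd1lg2 (ENSMUSG00000016498, chr19:29388319-29448561, plus strand), which encodes PD-L2, had 5 counts in siControl replicate 3 and 0 in each of the other 5 libraries, which was too few for a test.

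The inhibitory receptors did not move as one. Havcr2 (ENSMUSG00000020399, chr11:46345762-46372082, plus strand) encodes TIM-3, which restrains T cells and is also found on dendritic cells and macrophages. It had 37, 7 and 37 counts in siControl against 6, 0 and 8 in siAATF, or 29.7, 16.9 and 20.6 against 0.207, 0 and 0.444 TMM CPM. This was the steepest fall in the set, from 22.4 ± 6.58 to 0.217 ± 0.222 TMM CPM (log2 fold change -6.37, SE 0.63, adjusted p = 3.9e-05 by edgeR). Its raw counts too were lower in siAATF replicates 1 and 3 than in siControl replicates 1 and 3, despite the greater mouse depth.

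Vsir (ENSMUSG00000020101, chr10:60182630-60208463, plus strand) encodes VISTA, a B7-like protein of myeloid cells that acts as ligand and as receptor. Its 98, 32 and 137 counts in siControl gave 78.7, 77.3 and 76.4 TMM CPM, the tightest values of the set, and its 107, 9 and 62 counts in siAATF gave 3.69, 1.82 and 3.44. The difference was -4.64 on the log2 scale (SE 0.41, adjusted p = 2.4e-05 by edgeR), or 25.0-fold lower. Vsir lies within the Cdh23 locus on the other strand, but their exons share 0 bases and Cdh23 had at most 2 counts in a library.

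Lag3 (ENSMUSG00000030124, chr6:124881324-124888668, minus strand), a CD4-like receptor for MHC class II on activated T and natural killer cells and on plasmacytoid dendritic cells, had 5, 0 and 15 counts in siControl against 401, 28 and 47 in siAATF. These gave 4.01, 0 and 8.37 against 13.8, 5.65 and 2.61 TMM CPM, and the groups overlapped. The log2 fold change was 0.55 with an SE of 0.76 (adjusted p = 0.604 by edgeR), and without siAATF replicate 1 it turned to -0.25. A change in Lag3 of either sign was therefore not resolved by these libraries.

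T and natural killer cell markers, given beside these receptors, were low throughout. After TMM, 5 of 5 tested T cell and 5 of 6 tested natural killer cell genes were lower in siAATF, against 14.4% of all genes, whereas as CPM of the human plus mouse total both sums overlapped between the groups, at 0.246 to 1.28 against 0.248 to 0.537 and at 0.301 to 0.981 against 0.248 to 1.89. T cell markers summed to 7.23 to 38.5 TMM CPM in siControl against 0.605 to 1.05 in siAATF, with Cd3e at 0 in all siAATF libraries. Natural killer cell markers summed to 8.83 to 29.6 and 0.605 to 3.72 TMM CPM, with Klre1 at 0 in all siControl libraries. Plasmacytoid dendritic cell markers summed to 417 to 510 and 175 to 316 TMM CPM.

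Lgals9 was the only member called higher in siAATF. The gene (ENSMUSG00000001123, chr11:78853800-78875772, minus strand) encodes galectin-9, a sugar-binding protein that TIM-3 recognizes. It had 231, 38 and 188 counts in siControl against 9352, 1073 and 9175 in siAATF, or 185, 91.8 and 105 against 323, 216 and 509 TMM CPM. The lowest siAATF library lay just above the highest siControl library, and the mean rose 2.73-fold, from 127 ± 50.7 to 349 ± 148 TMM CPM (log2 fold change 1.45, SE 0.49, adjusted p = 0.0389 by edgeR). The call was lost without siControl replicate 2 (log2 fold change 1.27, adjusted p = 0.145), without siControl replicate 3 (1.31, adjusted p = 0.186) and without siAATF replicate 3 (1.15, adjusted p = 0.0776), with upper-quartile normalization (1.15, adjusted p = 0.0668) and on thinning to the smallest mouse total (0.77, adjusted p = 0.260). Scaling by mouse library size alone turned its direction, to -0.32 on the log2 scale.

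In the phagocytosis checkpoint the receptor gene fell after TMM, and the ligand gene was not called. Sirpa (ENSMUSG00000037902, chr2:129434759-129474148, plus strand), the receptor on macrophages and neutrophils, had 285, 85 and 349 counts in siControl against 1600, 86 and 805 in siAATF. Its levels of 229, 205 and 195 TMM CPM in siControl all lay above the 55.2, 17.3 and 44.7 in siAATF, a 5.34-fold fall (log2 fold change -2.42, SE 0.48, adjusted p = 0.00204 by edgeR). Cd47 (ENSMUSG00000055447, chr16:49620896-49735373, plus strand), the ligand that most cell types display, had 190, 68 and 332 counts in siControl against 5264, 1048 and 3628 in siAATF. Its levels were 153, 164 and 185 against 182, 211 and 201 TMM CPM, with the groups overlapping and a log2 fold change of 0.24 (SE 0.39, adjusted p = 0.657 by edgeR). Its direction turned with upper-quartile normalization (-0.05), on thinning (-0.68) and with mouse library size scaling (-1.59, adjusted p = 0.0146), where it was called lower along with Sirpa.

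Because a ratio of genes within a library does not depend on how libraries are scaled to each other, Sirpa was also set against Cd47 directly. The log2 ratio of Sirpa to Cd47 per length was 1.14, 0.88 and 0.63 in siControl and -1.16, -3.05 and -1.62 in siAATF. The means differed by -2.83 on the log2 scale without overlap between the groups (p = 0.1 by exact permutation, two-sided, which is the minimum for 3 against 3 libraries). Ratios for Cd274 to Pdcd1lg2, Cd86 to Cd80 and Havcr2 to Lgals9 were not tested, since a member of each had fewer than 10 counts in some library.

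The members' order also differed when levels were compared per kilobase of gene length. In siControl the order was Lgals9 at 79.0 ± 31.5 TMM CPM per kilobase, Sirpa at 49.4 ± 4.12, Cd47 at 26.9 ± 2.65 and Vsir at 15.7 ± 0.231, and the ranges of these 4 did not overlap. Havcr2 (8.24 ± 2.42), Cd86 (6.58 ± 2.43) and Cd274 (5.81 ± 1.20) followed with overlapping neighbours, then Lag3 (2.06 ± 2.09), Cd80 (1.41 ± 1.63) and Pdcd1lg2 (0.474 ± 0.821), whose ranges also overlapped. In siAATF, Lgals9 stood at 217 ± 91.8 TMM CPM per kilobase and Cd47 at 31.8 ± 2.43, each above the next gene without overlap. Sirpa (9.21 ± 4.61) and Lag3 (3.68 ± 2.90) came next with overlapping ranges. Vsir, Cd86, Cd274, Cd80 and Havcr2 had means of 0.604 to 0.0797 in that order, each overlapping its neighbour.

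As a share of the summed per-kilobase level of the 10 genes within a library, Lgals9 and Cd47 together made up 59.5, 49.8 and 51.3% in siControl against 91.4, 95.4 and 96.1% in siAATF. Lgals9 alone was at 39.4 ± 8.35% and 81.0 ± 5.60% (SD, n = 3), while Cd47 was at 14.1 ± 3.17% and 13.3 ± 5.36%. The 5 genes called lower, which earlier values had picked, had 44.4 ± 4.41% and 4.03 ± 1.60%. These shares were computed after the values were seen and carry no test. They leave out the scaling between libraries, but not the difference in cell markers.

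**Figure D3:**
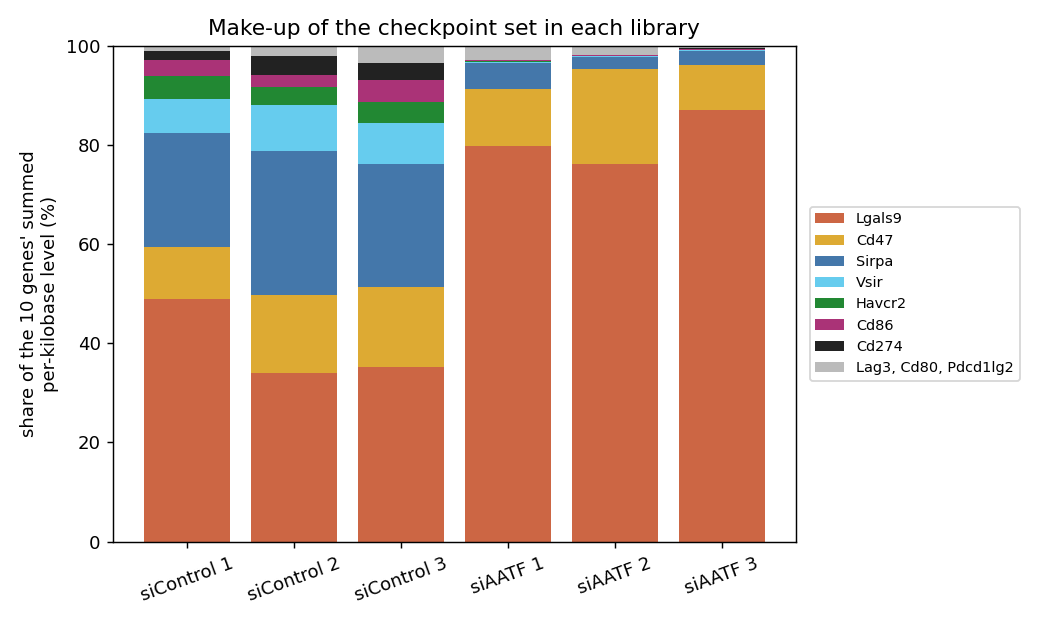
Share of each gene in the summed per-kilobase level of the 10 checkpoint and costimulatory genes (%), one stacked bar per library. Lgals9 and Cd47 together take 49.8 to 59.5% in the siControl bars and 91.4 to 96.1% in the siAATF bars.

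The direction of most members depended on what the libraries were scaled to. TMM sets the bulk of mouse genes equal, whereas scaling by all gene counts, human and mouse, sets the whole library equal, and moved the median log2 fold change of all mouse genes from 0.50 to 4.66. On that scale Cd274 was at 0.548, 0.365 and 0.759 CPM of all gene counts in siControl and at 0.558, 0.248 and 0.848 in siAATF, a log2 fold change of 0.02 (adjusted p = 0.982 by edgeR). Vsir was at -0.33 and Cd86 at 0.64, neither of which was called. Only Havcr2 remained called lower, at -2.20, while Sirpa (1.95), Cd80 (2.13), Cd47 (4.49), Lag3 (4.83) and Lgals9 (5.66) were called higher. Of all 18018 genes, 119 were called lower and 15711 higher on that scale. Relative to the shifted median, Lgals9 and Lag3 were the members above it.

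Set against myeloid marker RNA, the groups overlapped for Cd274 and Vsir, and Havcr2 was lower in 2 siAATF libraries. Per 1000 pan-myeloid marker counts, Cd274 was at 4.27, 11.05 and 8.41 in siControl against 10.2, 12.7 and 6.25 in siAATF. Vsir was at 20.9, 35.4 and 28.1 against 45.5, 38.0 and 12.9 on the same scale. Havcr2 was at 7.91, 7.73 and 7.59 against 2.55, 0 and 1.67 per 1000 pan-myeloid counts, from 6, 0 and 8 counts in siAATF. Replicates 1 and 3 of siAATF lay below siControl, but the 0 in replicate 2 allows up to 12.7 per 1000, above every siControl value, so that library is not shown to be lower. With this scaling in the fit its log2 fold change of -2.09 had an adjusted p of 0.157 by edgeR.

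On the same per-myeloid scale, Cd86 was at 5.78 ± 1.78 against 12.7 ± 4.34 per 1000 without overlap, but was not called in the fit (log2 fold change 1.10, adjusted p = 0.394 by edgeR). Sirpa was at 60.9, 93.9 and 71.6 against 680, 363 and 168 per 1000 pan-myeloid counts, so that its fall relative to all mouse genes was a rise relative to myeloid markers (log2 fold change 2.42, adjusted p = 0.00702 by edgeR). The log2 ratio of Sirpa to summed pan-myeloid markers differed by 2.22, that of Cd47 by 5.05 and that of Lgals9 by 6.24, and the groups did not overlap for any of these 3 genes (p = 0.1 each, the smallest possible, by exact permutation, two-sided, and 0.1 after adjustment over the members tested). The median log2 fold change of all mouse genes was 5.50 on this scale, which Lgals9 (6.32) and Lag3 (5.89) exceeded and Cd47 (5.33) did not. The hepatocyte markers lay in the same direction as these 3 genes, and their part was not tested.

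**Figure D4:**
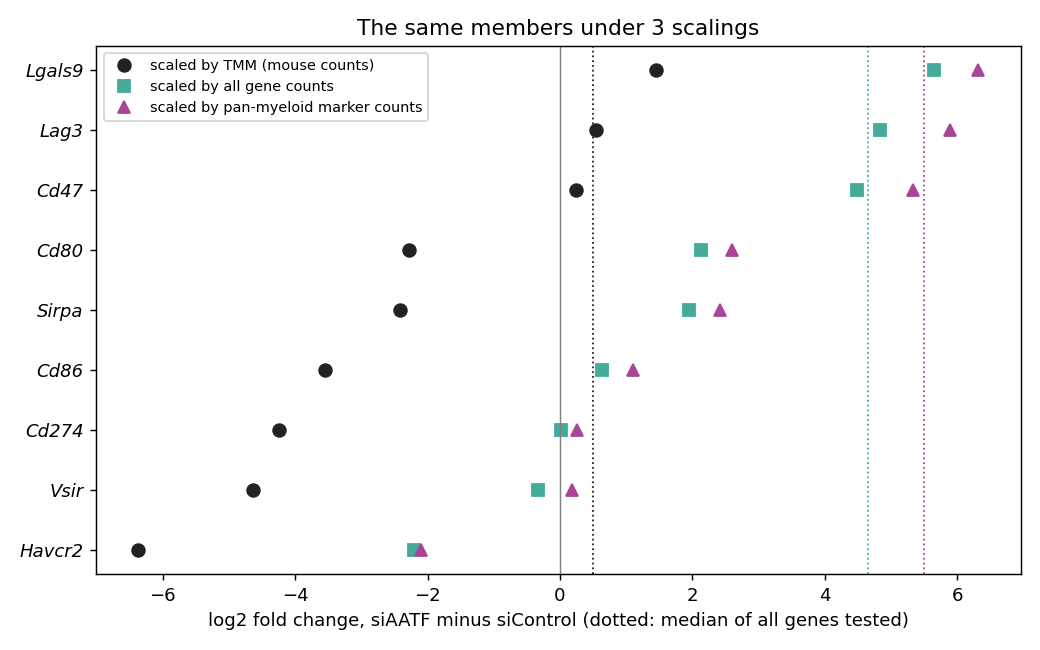
Fitted log2 fold changes (siAATF minus siControl) of the 9 tested members when libraries are scaled by TMM, by all gene counts or by pan-myeloid marker counts, with dotted lines at the median of all genes tested (0.50, 4.66 and 5.50). Havcr2 lies below 0 under each of the 3 scalings, Cd274 and Vsir lie near 0 under the latter 2, and Lgals9 lies above the median each time.

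The direct binding and signalling partners of the members moved in both directions. Of 14 partner genes, 12 were tested, 4 were lower and 5 were higher in siAATF, with a list median of -0.13 against 0.50 for all genes, of which 14.4% were lower and 17.6% higher. With either scaling by all gene counts or by pan-myeloid markers, 1 partner was lower and 9 were higher. On these scales 15711 and 15474 of all 18018 genes were higher, and 119 and 54 lower. Mouse library size scaling gave 6 partners lower and 1 higher, against 7276 and 747 of all genes. The limma-voom fit called 4 lower and 3 higher, and thinning to the smallest mouse total left 3 lower and 3 higher. PD-1 and CTLA-4, the receptors of the B7 ligands, were at the limit of detection, with Pdcd1 at 3, 0 and 4 and Ctla4 at 0, 0 and 2 counts in siControl against 0 in each siAATF library. Cd28 had 3, 0 and 0 counts against 1, 0 and 9 and was not called (adjusted p = 0.340 by edgeR).

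The partners that fell were Thbs1, Selplg, Ptpn6 and Rgmb. Thbs1 encodes thrombospondin 1, a secreted ligand of CD47, and went from 288 ± 64.9 to 1.31 ± 0.806 TMM CPM (log2 fold change -7.63, SE 0.62, adjusted p = 2.13e-05 by edgeR). Selplg encodes PSGL-1, a leukocyte adhesion molecule that binds VISTA, and went from 79.5 ± 21.1 to 1.68 ± 1.53 TMM CPM (-5.44 on the log2 scale, and -6.41 without siAATF replicate 3). It was not called with scaling by all gene counts (-1.14, adjusted p = 0.136) or by pan-myeloid markers (-1.23, adjusted p = 0.283). Ptpn6 encodes SHP-1, a phosphatase that acts below SIRPα, and fell by 2.56 on the log2 scale, close to the -2.42 of Sirpa. Rgmb, whose product binds PD-L2, was at -2.25. Its call was lost without siControl replicate 1 (-1.60, adjusted p = 0.178) and when libraries were thinned to the smallest mouse total (-1.11, adjusted p = 0.485), both by edgeR. Scaling by all gene counts turned Ptpn6 and Rgmb to 1.73 and 2.00 on the log2 scale.

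The partners that rose were Ceacam1, Clec4g, Fgl1, Igsf11 and Cmtm6. Ceacam1, an adhesion molecule that binds TIM-3, had 21, 4 and 22 counts in siControl against 4880, 1281 and 5451 in siAATF, or 12.9 ± 3.64 against 243 ± 68.3 TMM CPM (log2 fold change 4.19, SE 0.48, adjusted p = 7.51e-05 by edgeR). Fgl1, a LAG-3 ligand secreted by hepatocytes, had 777, 71 and 451 counts in siControl against 10539, 6907 and 178470 in siAATF. Its groups overlapped in TMM CPM, and its call (3.47 on the log2 scale, adjusted p = 0.0273) was lost without siAATF replicate 3, where the log2 fold change was 1.42. Clec4g, a lectin of sinusoidal endothelium that also binds LAG-3, had 8, 0 and 0 counts against 1523, 45 and 324, a log2 fold change of 3.48 that ranged from 2.56 without siAATF replicate 1 to 11.2 without siControl replicate 1 and was not called with mouse library size scaling (1.89, adjusted p = 0.122). Summed endothelial markers lay at 340 to 457 against 72.7 to 148 TMM CPM with 4 of 6 lower, against 14.4% of all genes. As CPM of the human plus mouse total they lay at 6.90 to 13.3 against 35.7 to 99.7. Igsf11, which encodes the VISTA ligand VSIG-3, was at 1.73, and Cmtm6, whose product stabilizes PD-L1 at the cell surface, at 1.32.

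Most of these rises were not secure against leaving out a library. Without siControl replicate 2 or without siControl replicate 3, 1 of the 5 rises was called, Ceacam1 being the one whose call held in each case. Hmgb1, an alarmin that binds TIM-3, was at -0.56 on the log2 scale and Ptpn11, which encodes the phosphatase SHP-2, at 0.30, and neither was called (adjusted p = 0.365 and 0.531 by edgeR).

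Other genes that restrain phagocytes fell in the same direction as Sirpa and Vsir. Of 10 genes, 9 were tested, 8 were lower and 0 higher by edgeR, DESeq2 and limma-voom and at an unadjusted p under 0.05, with a median of -3.65, against 14.4% of all genes lower by edgeR. Scaled by all gene counts, 0 were lower and 3 higher, and scaled by pan-myeloid markers 0 were lower and 1 higher, both by edgeR. Of all 18018 genes, 119 and 54 were lower and 15711 and 15474 higher on these scales. Cd300lf, an inhibitory receptor of myeloid cells, went from 65.1 ± 25.5 to 1.53 ± 1.55 TMM CPM (log2 fold change -5.34, with -4.75 without siAATF replicate 1 and -6.91 without siAATF replicate 3), and Clec12a, an inhibitory lectin of monocytes and neutrophils, from 48.1 ± 10.3 to 2.60 ± 0.287 (-4.24). Scaled by all gene counts, neither was called, at -1.07 and -0.02. Neutrophil markers summed to 90.7 to 1899 TMM CPM in siControl against 2.22 to 137 in siAATF, overlapping between the groups, with 5 of 6 called lower by edgeR, 3 by DESeq2 and 6 by limma-voom.

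Of 10 costimulatory genes of the TNF family, 5 were tested, and 3 were lower and 0 higher by edgeR (4 lower and 0 higher at an unadjusted p under 0.05, and 0 higher by DESeq2 and limma-voom), against 14.4% of all genes lower. With either scaling by all gene counts or by pan-myeloid markers, 1 was lower and 1 higher. Among all 18018 genes, 15711 and 15474 were higher on these scales, and 119 and 54 lower. Thinning to the smallest mouse total left 1 of the list lower, and the fit with no filter called 6 lower, with 0 higher in each. Tnfrsf9 encodes 4-1BB, a receptor of activated lymphocytes and myeloid cells, and had 58, 31 and 168 counts in siControl but 1, 0 and 1 in siAATF, or 71.7 ± 23.7 against 0.0300 ± 0.0280 TMM CPM. Its ligand Tnfsf9 had 5, 2 and 8 counts against 0, 0 and 2. For Tnfrsf9 the raw counts alone were lower in every siAATF library, despite the greater mouse depth there.

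Among the further B7, CD28 and nectin family genes, 11 of 13 were tested, 2 were lower and 1 was higher, with a median of -1.19, against 14.4% and 17.6% of all genes. The limma-voom fit called 5 lower and 1 higher, scaling by all gene counts gave 0 lower and 8 higher, and pan-myeloid scaling 0 lower and 7 higher, the latter both by edgeR. On these 2 scales 15711 and 15474 of all 18018 genes were higher, and 119 and 54 lower. Mouse library size scaling gave 6 lower and 0 higher, against 7276 and 747 of all genes, and filterByExpr 4 lower and 1 higher. Pvr, the poliovirus receptor that T and natural killer cells recognize through TIGIT and CD226, went from 25.6 ± 8.50 to 6.94 ± 0.671 TMM CPM (log2 fold change -1.83, adjusted p = 0.00348 by edgeR), a call that was lost on thinning to the smallest mouse total (-1.52, adjusted p = 0.111). Nectin3, an adhesion molecule of the same family, went from 13.4 ± 3.06 to 60.8 ± 11.7 TMM CPM (2.17, adjusted p = 0.00102 by edgeR), but was not called with mouse library size scaling (0.36, adjusted p = 0.558). Without siControl replicate 1, and likewise without siControl replicate 3, 1 gene of this list was called lower.

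The enzymes of tryptophan, arginine and adenosine metabolism that limit T cells, listed with the adenosine receptor gene Adora2a, went both ways. Of these 8 genes, 7 were tested, 3 were lower (Nos2, Entpd1 and Adora2a) and 3 were higher, against 14.4% and 17.6% of all genes. With either scaling by all gene counts or by pan-myeloid markers, 1 was lower and 5 were higher. On these scales 119 and 54 of all 18018 genes were lower, and 15711 and 15474 higher. Ido1 had 0 counts in all libraries. Nos2, the inducible nitric oxide synthase of activated macrophages, had 51, 19 and 108 counts in siControl against 0, 1 and 3 in siAATF, or means of 49.0 against 0.123 TMM CPM. Entpd1, which encodes the ATP-degrading enzyme CD39, fell by 3.32 on the log2 scale. Tdo2 and Ido2, which degrade tryptophan and of which Tdo2 is a hepatocyte enzyme, rose by 5.47 and 4.98 on the log2 scale, Tdo2 from 10.8 ± 10.8 to 536 ± 63.3 TMM CPM. The log2 fold change of Tdo2, which had 0 counts in siControl replicate 2, was 6.23 without siControl replicate 1. Ido2 had 3, 0 and 0 counts in siControl, and its log2 fold change ranged from 4.01 without siControl replicate 3 to 11.3 without siControl replicate 1.

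Of the genes that lead from interferon gamma to PD-L1, 7 of 8 were tested, 3 were lower and 0 were higher by edgeR (4 and 1 at an unadjusted p under 0.05, and 0 higher by DESeq2 and limma-voom), against 14.4% of all genes lower. Scaled by all gene counts or by pan-myeloid markers, 0 were lower and 7 of 7 were higher by edgeR. On these scales 15711 and 15474 of all 18018 genes were higher, and 119 and 54 were lower. With mouse library size scaling 6 of the list were lower, and with upper-quartile normalization 5, with 0 higher in each. Ifng itself had 1, 0 and 1 counts in siControl against 1, 0 and 0 in siAATF. The receptor chain gene Ifngr1 fell from 51.6 ± 5.42 to 11.1 ± 5.80 TMM CPM (log2 fold change -2.20, adjusted p = 0.00223 by edgeR) and the kinase gene Jak2 from 45.4 ± 8.93 to 10.6 ± 2.17 (-2.09, adjusted p = 0.000867 by edgeR). Both were higher when scaled by all gene counts, at 2.10 and 2.21 on the log2 scale.

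Family relatives of the members did not follow them in one direction. Of 9 relatives, 8 were tested, 4 were lower and 1 was higher, against 14.4% and 17.6% of all genes. With either scaling by all gene counts or by pan-myeloid markers, 0 were lower and 3 higher by edgeR. Of all 18018 genes, 15711 and 15474 were higher on these scales, and 119 and 54 lower. Without siControl replicate 3, and likewise on thinning to the smallest mouse total, 2 relatives were lower. Among the galectins, Lgals1 went from 390 ± 42.0 to 11.5 ± 7.16 TMM CPM (log2 fold change -5.06) and Lgals3 from 386 ± 172 to 12.8 ± 12.9 (-4.90, and -6.06 without siAATF replicate 3), while Lgals8 went from 39.9 ± 7.68 to 97.7 ± 11.6 (1.31). Lgals9 thus shared its sign with Lgals8 and not with Lgals1 or Lgals3. The call of Lgals8 was lost without siControl replicate 3 (adjusted p = 0.131), and scaling by mouse library size turned it to -0.51.

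**Figure D5:**
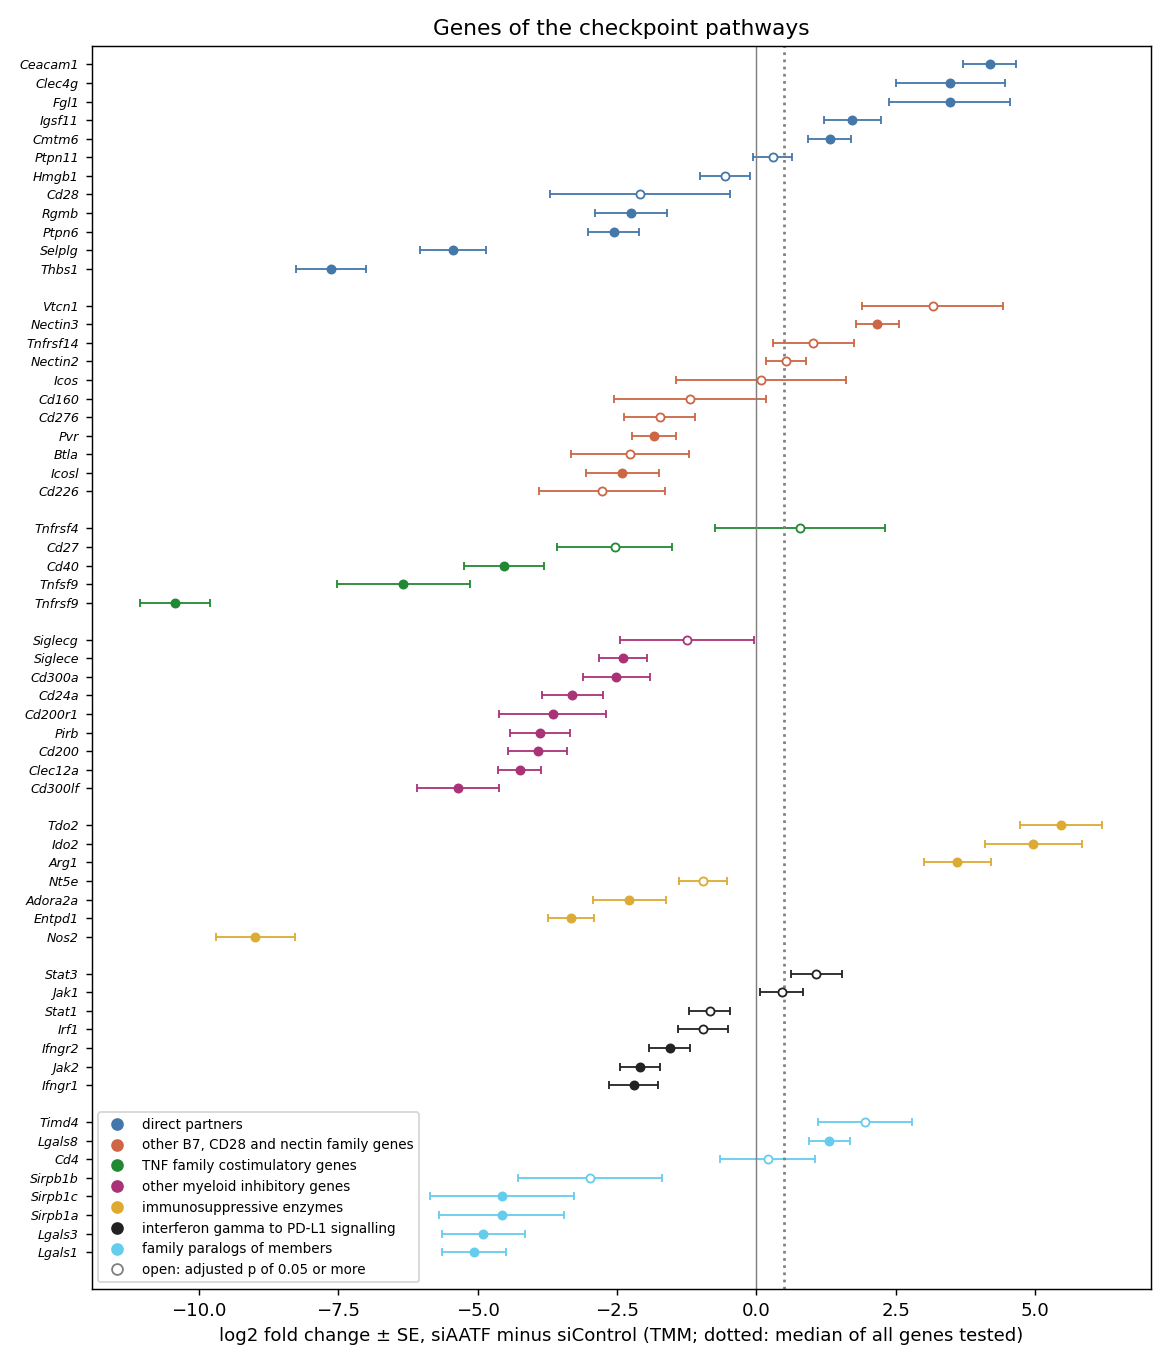
Log2 fold changes with SE (siAATF minus siControl, TMM) of the tested genes of 7 checkpoint pathway lists, with filled points for an adjusted p under 0.05 and a dotted line at the median of all genes (0.50). The other myeloid inhibitory genes all lie below 0, while the direct partners reach from -7.63 (Thbs1) to 4.19 (Ceacam1).

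Promoter windows reach from 250 bases before to 50 bases after a gene's start, and were given by RefSeq (GRCm38.p6) for 7 of the 10 members, Sirpa, Cd86 and Lag3 being the others. Each window of 300 bases was found exactly 1 time on the same chromosome and strand of GRCm39. They were searched on both strands for the interferon-stimulated response element core (GAAANNGAA), the GAS element (TTCNNNGAA), which interferon gamma acts through, and the NF-κB element. The response element core was present in the windows of Cd274 and Lgals9, and in 8.56% of all 32851 windows. The RefSeq start used for Cd47 lies 55121 bases and that for Cd80 3372 bases downstream of the gene start in the count table, so their windows do not describe that start. No GAS element was found in the 7 windows (8.30% of all windows), and the NF-κB element was found in that of Pdcd1lg2 (8.46% of all).

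The windows of Cd274 and Lgals9 are shown because these interferon-linked ligands hold the same motif while their TMM levels moved in opposite directions. With scaling by all gene counts, by pan-myeloid markers or by mouse library size, their log2 fold changes had the same sign. Capitals mark the response element core, which lies on the minus strand of each window and so reads as its reverse complement. The Cd274 window is chr19:29344588-29344887 of GRCm39 (plus strand) and the Lgals9 window chr11:78875701-78876000 (minus strand).
Cd274: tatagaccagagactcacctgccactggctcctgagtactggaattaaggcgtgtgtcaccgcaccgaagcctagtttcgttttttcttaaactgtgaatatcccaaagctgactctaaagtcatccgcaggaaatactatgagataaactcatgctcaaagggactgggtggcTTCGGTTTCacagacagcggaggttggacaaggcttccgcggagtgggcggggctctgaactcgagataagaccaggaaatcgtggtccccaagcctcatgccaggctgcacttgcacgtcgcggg
Lgals9: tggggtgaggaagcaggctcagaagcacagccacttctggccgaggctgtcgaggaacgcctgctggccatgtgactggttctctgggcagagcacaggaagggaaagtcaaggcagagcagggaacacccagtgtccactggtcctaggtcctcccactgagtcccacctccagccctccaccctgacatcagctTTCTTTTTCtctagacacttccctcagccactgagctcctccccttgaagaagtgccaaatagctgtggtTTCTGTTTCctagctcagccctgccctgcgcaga
Cd274 holds 1 match, 76 bases before its start, and Lgals9 holds 2, the first 54 bases before its start and the second beyond it. A match describes letters only, and binding was not measured here.

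For the 5 members with a mean of at least 50 counts per library (Sirpa, Cd47, Lgals9, Vsir and Lag3), the 9457 genes with as many counts were ranked by the Pearson correlation of log2(TMM CPM + 1) over the 6 libraries, as a description. An r over 0.9 was reached by 863 genes for Sirpa, 129 for Cd47, 1225 for Lgals9, 883 for Vsir and 53 for Lag3. The libraries share group and depth, so that a gene that separates the groups in a like way will rank high. Vsir was followed most closely by Loxl2 (r = 0.999) and Pkm (0.999), Sirpa by Cyb5r1 (0.999) and Uba2 (0.998), and Lgals9 by Cfi (1.00) and Nkiras1 (0.999). Cd47, which did not separate the groups, was followed by Zbtb48 (0.985) and Lime1 (0.983), and Lag3 by Cadm3 (0.990) and Cstf2t (0.985). Lag3 had 5, 0 and 15 counts in siControl and reached the mean of 50 only through siAATF, where replicate 1 held 401.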

How the data were processed

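Total RNA from liver was made into SMART-Seq paired-end libraries, 3 for each group. The authors trimmed reads with Cutadapt, aligned them with STAR 2.7.11 to the joined human and mouse genomes (GRCh38 and GRCm39), discarded reads with several or cross-species hits, and deposited raw gene counts from featureCounts 2.0.1, without normalization. Whether counting used the strand was not stated. Names came from GENCODE release 39.

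Mouse counts were tested with edgeR 4.0.16 in R 4.3.3 (quasi-likelihood test, TMM, at least 10 counts in total, group as the only term, Benjamini-Hochberg adjustment over all genes tested). A gene was called at an adjusted p under 0.05. Alternatives included DESeq2 1.42.0 and limma 3.58.1. Ratios used exact permutation tests in scipy 1.17.1.

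All members and Aatf are named, as are direct partners. From every other list up to 2 called genes at each end without overlap are named, apart from Adora2a and genes with few counts or at 0, such as Ido1 and Ifng, named after their values were seen. Members and lists were chosen with earlier results of these data known. The likeness ranking took 2 genes per member. The fit was tested on simulated counts that lacked the difference in composition between the groups, so the choice of scaling was not tested by them. Floors reflect counting error alone, as PCR duplicates were not separated from independent molecules.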

Additional observations from a re-analysis of the deposited data

How the results depend on the processing

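The same 5 members were lower and Lgals9 was higher under RLE normalization, filterByExpr and limma-voom. DESeq2 added Cd80, for 6 lower, and the fit with no filter added Pdcd1lg2, whose 5 counts lay in 1 library. Scaling by all gene counts, human and mouse, left 1 lower and 5 higher, with a member median of 1.95 and 119 genes lower and 15711 higher of all genes. Scaling by pan-myeloid markers left 0 lower and 4 higher, a median of 2.42, and 54 lower and 15474 higher of all. Scaling by mouse library size gave 7 lower and 0 higher, with a median of -4.14 and 7276 lower and 747 higher of all. A minimum of 10 counts in every library kept 3 members, of which 1 was lower, with a median of 0.25 and 873 lower and 872 higher of all, since fewer genes were tested. Thinning to the smallest mouse total gave 0 members higher, a median of -3.16 and 1219 genes higher, and upper-quartile normalization 0 higher and a median of -2.74. The median was -2.88 without a filter and -3.13 with filterByExpr. The rule on unadjusted p and a fold change of at least 2 called 0 members higher.

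The direction turned in these cases, as log2 fold changes, and the cause was not tested. With all gene counts, and then with pan-myeloid markers, Cd274 was at 0.021 and 0.26, Sirpa at 1.95 and 2.42, Cd80 at 2.13 and 2.60, Cd86 at 0.64 and 1.10, Cd28 at 1.84 and 1.83, Rgmb at 2.00 and 2.72, Hmgb1 at 3.72 and 4.55, Ptpn6 at 1.73 and 2.09, Pvr at 2.51 and 3.09, Entpd1 at 0.98 and 1.83, Ifngr1 at 2.10 and 2.50, and Jak2 at 2.21 and 2.79. With pan-myeloid markers alone Vsir was at 0.18 and Clec12a at 0.92. With mouse library size, Cd47 was at -1.59, Lgals9 at -0.32, Lag3 at -1.12, Aatf at -0.92, Igsf11 at -0.012, Ptpn11 at -1.52, Cmtm6 at -0.47 and Lgals8 at -0.51. Upper-quartile normalization put Cd47 at -0.054, and thinning put Cd47 at -0.68 and Aatf at -0.38.

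Leaving out each library in turn gave 5 members lower each time, 0 to 1 higher, medians of -2.91 to -2.44, and 1722 to 2509 genes lower and 1611 to 3579 higher of all, the lowest counts without siControl replicate 3. Lag3 ranged from -0.25 to 1.43 and Cd28 from -2.93 to 4.20.

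With the replicate number as a replicate block, 5 members were lower and 1 was higher, against 2912 lower and 3854 higher of all genes. Same-numbered libraries correlated at 0.145, 0.212 and -0.0229 across genes in their deviations from the group means. The 0.212 of replicates 2 was the highest of all pairs, while siControl replicate 1 correlated best with siAATF replicate 3, at 0.176. Deviations from a mean of 3 libraries cannot decide whether same-numbered libraries were paired. Pdcd1lg2, Pdcd1 and Ctla4 had too few counts to be tested at this depth.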
